A study of Mus musculus with 77 samples.

Results

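The loss of IRP1 and the loss of IRP2 were compared in mouse liver at ZT5, that is 5 hours after lights on. For every gene the knockout effect in the *Aco1* line was set against the knockout effect in the *Ireb2* line. *Aco1* encodes IRP1 and *Ireb2* encodes IRP2. All livers of both lines taken at ZT5 were used, which were 12 of the 24 livers of the series, 3 each from *Aco1*+/+, *Aco1*-/-, *Ireb2*+/+ and *Ireb2*-/- mice. Knockouts carried the alleles Aco1 tm1.1Mwh or Ireb2 tm1.2Mwh in the whole body and not in liver alone. All mice were adult males on a C57BL/6J background, and the wild types of each line came from that line's own breeding. Each liver came from 1 mouse and gave 1 library of total RNA and 1 of ribosome-protected fragments (RPFs), short mRNA fragments left after nuclease digestion because a ribosome covered them. Translation efficiency (TE) was the log2 ratio of RPF to RNA.

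IRP1 and IRP2 bind iron-responsive elements (IREs), short hairpins in the untranslated regions of mRNAs for iron proteins. Bound to a 5′ IRE, as in the ferritin mRNAs, an IRP blocks the start of translation, and bound to the 3′ IREs of the transferrin receptor mRNA it protects that mRNA from decay. Both proteins respond to iron supply. FBXL5, a subunit of a ubiquitin ligase, marks IRP2 for breakdown, and an IRP1 molecule that holds an iron-sulphur cluster does not bind IREs but works as an aconitase of the cytosol. The liver stores iron in ferritin, exports it through ferroportin and makes hepcidin, the hormone that removes ferroportin from cell surfaces.

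The quantity compared was the difference of differences, (*Aco1*-/- minus *Aco1*+/+) minus (*Ireb2*-/- minus *Ireb2*+/+), on the log2 scale. A negative value means a lower knockout effect in the *Aco1* line than in the *Ireb2* line. Coding-sequence counts per library ranged from 1271060 to 3993492 in RNA and from 2448915 to 13439600 in RPF, and 10367 genes had enough counts to be tested. Levels are given as CPM, that is counts per 1e+06 of the library size after upper-quartile scaling, and are not corrected for gene length, so levels of different genes are not compared. Of the 9 hepatocyte markers 9 were tested, with a summed RNA level between 101990 and 146996 CPM in all 12 livers. The RNA library of *Ireb2*+/+ replicate 3 stood apart: its mean correlation with the other 2 of its group was 0.942, against 0.959 to 0.982 for the other 11 RNA libraries. Its summed RNA of the mitochondrially encoded genes was 7793 CPM, against 29897 to 41316 CPM in the other 11.

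The difference of differences passed an adjusted p of 0.05 for 0 genes in RNA (0% of the 10367 tested), for 1 gene in RPF (0.00965%) and for 2 genes in TE (0.0193%), by edgeR's quasi-likelihood test with Benjamini-Hochberg adjustment. The genes were *Aco1* in RPF and *Aco1* and *Ireb2* in TE, the genes that the knockouts target. At an unadjusted p under 0.05 there were 454 genes in RNA (4.38%, with 2.28% positive and 2.1% negative), 479 in RPF (4.62%, 1.92% and 2.7%) and 450 in TE (4.34%, 1.63% and 2.71%). DESeq2 called 3 genes in RNA (*Mup7*, *Npr2* and *Hamp*), 4 in RPF (*Aco1*, *Ireb2*, *Gba2* and *Hamp*) and 2 in TE. In simulated data on these libraries a 2-fold difference between the lines was called for 22% of changed genes in RNA, 32% in RPF and 4% in TE, and a 4-fold one for 80%, 86% and 44%.

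The targeted genes came first, as a check of the labels. *Aco1* (chr4:40143265-40199009, GRCm38) RPF was 403, 349 and 488 CPM in *Aco1*+/+, 75.8, 81.7 and 84.8 in *Aco1*-/-, 629, 525 and 626 in *Ireb2*+/+ and 466, 569 and 544 in *Ireb2*-/- livers. The *Aco1*-/- livers lay below all 9 others with no overlap. The *Aco1* effect on RPF was -2.36 ± 0.15 (log2 ± SE) and the *Ireb2* effect -0.17 ± 0.14, a difference of -2.18 ± 0.20 (edgeR, adjusted p = 3.74e-05). *Aco1* RNA was 249, 242 and 254 CPM in *Aco1*+/+, 115, 159.6 and 169.9 in *Aco1*-/-, 319, 297 and 330.2 in *Ireb2*+/+ and 304, 336 and 298 in *Ireb2*-/- livers, which was lower in *Aco1*-/- as well (effect -0.74 ± 0.14, edgeR, adjusted p = 0.0349). That RNA call was lost when any 1 of 8 livers was left out, that is any but *Aco1*-/- replicate 3 and the *Ireb2*+/+ livers, with effects between -0.79 and -0.59. Its TE was 0.69, 0.53 and 0.94 in *Aco1*+/+, -0.60, -0.97 and -1.002 in *Aco1*-/-, 0.98, 0.82 and 0.92 in *Ireb2*+/+ and 0.62, 0.76 and 0.87 in *Ireb2*-/- livers. The TE effect was -1.57 ± 0.13 in the *Aco1* line and -0.16 ± 0.12 in the *Ireb2* line, and the difference between lines was -1.41 ± 0.17 (edgeR, adjusted p = 7.39e-06). The RNA therefore remained measurable in the knockouts, and the RPF level fell by more than the RNA level.

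*Ireb2* (chr9:54862658-54912534, GRCm38) gave the opposite picture in the other line. Its RNA was 131.4, 119.6 and 149.8 CPM in *Aco1*+/+, 128, 134.6 and 152 in *Aco1*-/-, 151, 127 and 73.1 in *Ireb2*+/+ and 122.9, 147.7 and 163 in *Ireb2*-/- livers, with groups that overlapped in both lines. *Ireb2* RPF was 64.2, 68.3 and 57.1 CPM in *Aco1*+/+, 56.5, 68.6 and 72.9 in *Aco1*-/-, 80.2, 78.8 and 68.7 in *Ireb2*+/+ and 33.5, 39.8 and 39.3 in *Ireb2*-/- livers. All 3 *Ireb2*-/- livers were below the other 9. RPF changed by -1.01 ± 0.14 in *Ireb2*-/- (edgeR, adjusted p = 0.00319) and by 0.05 ± 0.14 in *Aco1*-/-, and the difference of 1.06 ± 0.19 did not pass (edgeR, adjusted p = 0.129). With same-numbered livers of the *Aco1* line as a block, a fit chosen after seeing the data, it did pass (1.05; edgeR, adjusted p = 0.0303). TE of *Ireb2* was -1.03, -0.81 and -1.39 in *Aco1*+/+, -1.18, -0.97 and -1.06 in *Aco1*-/-, -0.92, -0.69 and -0.09 in *Ireb2*+/+ and -1.87, -1.89 and -2.05 in *Ireb2*-/- livers. The TE effect of -1.34 ± 0.17 in *Ireb2*-/- against -0.03 ± 0.17 in *Aco1*-/- gave a difference of 1.31 ± 0.23 (edgeR, adjusted p = 0.0125). That call was lost when any 1 of 6 livers was left out (*Aco1*+/+ replicates 1 and 3, *Aco1*-/- replicates 2 and 3, *Ireb2*-/- replicates 2 and 3), with differences between 1.18 and 1.34. Without *Ireb2*+/+ replicate 3, whose RNA level was the lowest, it was 1.09 and still called. The RPF call of the *Ireb2* line was lost without *Ireb2*-/- replicate 1, where the effect was -0.94. The difference was also put to an exact two-sided permutation of genotypes within each line, whose 400 arrangements allow no p under 0.005. The exact permutation test gave p = 0.095 for *Aco1* TE, 0.09 for *Aco1* RPF, 0.05 for *Ireb2* TE and 0.035 for *Ireb2* RPF. Where the effect lies in a single line, shuffling the other line alone leaves a similarly large difference. That floor is then out of reach, even for the disrupted *Aco1*, and the permutation cannot decide whether the lines differ.

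**Figure D1:**
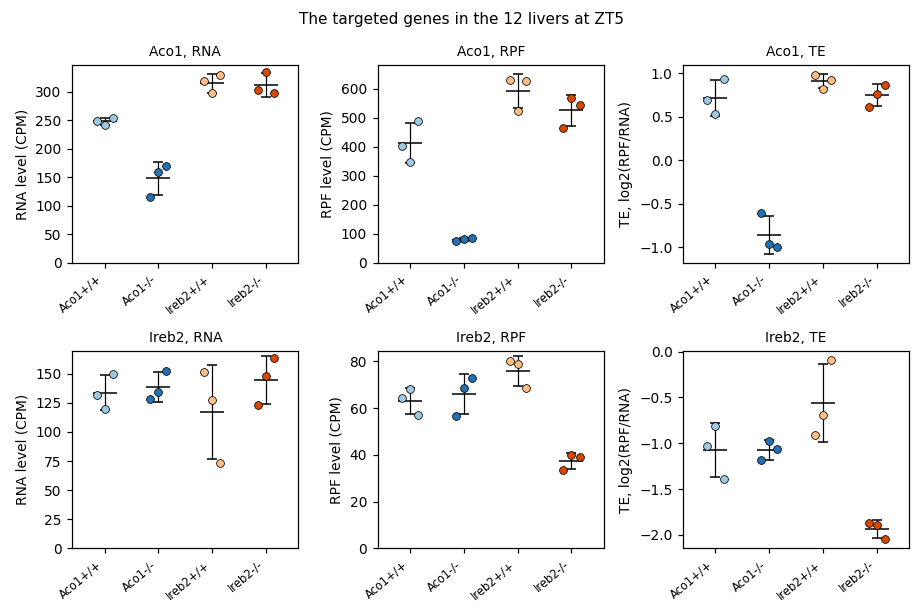
Levels of *Aco1* (top) and *Ireb2* (bottom) in each of the 12 livers: RNA and RPF in CPM on axes from 0, and TE as log2(RPF/RNA). Points are single livers, and bars show the mean ± SD of 3 livers per genotype. *Aco1* RPF was 75.8 to 84.8 CPM in *Aco1*-/- livers and 349 to 629 CPM in the other 9, and *Ireb2* RPF was 33.5 to 39.8 CPM in *Ireb2*-/- livers and 56.5 to 80.2 CPM in the other 9.

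Each IRP was also measured in the absence of the other, which asks whether one rises where the other is missing. *Ireb2* in *Aco1*-/- livers changed by 0.06 ± 0.18 in RNA and 0.05 ± 0.14 in RPF, and *Aco1* in *Ireb2*-/- livers by -0.01 ± 0.14 in RNA and -0.17 ± 0.14 in RPF. Knockout and wild-type livers overlapped in each case. *Fbxl5*, which targets IRP2 for degradation, differed between the effects of the 2 lines by -0.09 ± 0.26 in RNA, 0.00 ± 0.19 in RPF and 0.13 ± 0.30 in TE, differences smaller than their errors.

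Among the 5 mRNAs with a 5′ IRE described here, 2 had a higher TE in *Aco1*-/- at an unadjusted p under 0.05 (*Alas2* and *Slc40a1*) and 3 in *Ireb2*-/- (*Ftl1*, *Fth1* and *Alas2*), where the shares over all genes were 1.69% and 2.96%. By edgeR, 0 members passed the adjusted threshold in either line or in the difference. The median TE effect of the 5 was 0.48 in the *Aco1* line and 0.36 in the *Ireb2* line, and their RNA medians were -0.05 and -0.08. The *Aco1* TE median was 0.26 without *Aco1*+/+ replicate 1 and 0.30 without *Aco1*-/- replicate 2, with 1 member at an unadjusted p under 0.05 in each case, and otherwise 0.45 to 0.55. The *Aco1* count was 3 without *Ireb2*+/+ replicate 3. The *Ireb2* TE median ran from 0.26 (without *Ireb2*+/+ replicate 3) to 0.43, and its count was 2 without that liver or *Ireb2*-/- replicate 1. Over all genes the median TE effects were -0.00239 and 0.00982. For comparison, the 3 knockouts all lay above their wild types for 5.08% of all genes in RNA, 4.03% in RPF and 4.06% in TE in the *Aco1* line, and for 6.38%, 9.48% and 5.9% in the *Ireb2* line. They all lay below for 4.18%, 3.49% and 4.43%, and for 4.98%, 6.91% and 6.03%.

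The ferritin mRNAs showed the larger values in the *Ireb2* line. *Ftl1*, which encodes the ferritin light chain, had RPF levels of 39.6, 96.9 and 54.4 CPM in *Aco1*+/+, 141, 99.2 and 111.9 in *Aco1*-/-, 55.2, 115 and 24.4 in *Ireb2*+/+ and 252, 242 and 273 in *Ireb2*-/- livers. The 3 *Ireb2*-/- livers were the highest of all 12. Its TE was -2.47, -0.76 and -1.61 in *Aco1*+/+, -0.93, -1.10 and -0.90 in *Aco1*-/-, -1.64, -0.90 and -3.83 in *Ireb2*+/+ and 0.14, 0.39 and 0.33 in *Ireb2*-/- livers. The TE effect was 2.31 ± 0.68 in *Ireb2*-/- (unadjusted p = 0.0086, edgeR, adjusted p = 0.872) and 0.61 ± 0.70 in *Aco1*-/-, where the genotypes overlapped. Pseudogenes of *Ftl1* may share its reads, so its level is uncertain. *Fth1*, the heavy chain that oxidises iron, had TE values of -0.87, -0.29 and -0.40 in *Aco1*+/+, -0.26, 0.32 and -0.18 in *Aco1*-/-, -0.69, -0.51 and -1.89 in *Ireb2*+/+ and 0.45, 0.57 and 0.51 in *Ireb2*-/- livers. Again the *Ireb2*-/- livers were the 3 highest, and the *Aco1*-/- livers lay just above their own wild types. The *Fth1* TE effects were 1.52 ± 0.35 in *Ireb2*-/- (unadjusted p = 0.00222, edgeR, adjusted p = 0.858) and 0.48 ± 0.35 in *Aco1*-/-. The difference between lines was -1.70 ± 0.97 for *Ftl1* and -1.04 ± 0.49 for *Fth1* (edgeR, unadjusted p = 0.116 and 0.0659). The exact permutation test gave p = 0.27 and 0.265, but it cannot decide here because the larger effect lies in a single line. Of the 12 livers *Ireb2*+/+ replicate 3, whose RNA library stood apart, had the lowest TE of both ferritins. Without it the *Ireb2* effect on TE was 1.55 for *Ftl1* and 1.11 for *Fth1*, and the difference between lines -0.95 and -0.63.

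*Slc40a1*, which encodes the iron exporter ferroportin, had its larger values in the *Aco1* line. RPF of *Slc40a1* was 156, 144.3 and 264 CPM in *Aco1*+/+, 292, 371 and 451 in *Aco1*-/-, 183, 232 and 98.6 in *Ireb2*+/+ and 192, 203 and 226 in *Ireb2*-/- livers. In the *Aco1* line the knockouts were all above the wild types, and in the *Ireb2* line the genotypes overlapped. TE was -0.13, 0.17 and 0.21 in *Aco1*+/+, 0.45, 0.61 and 0.65 in *Aco1*-/-, 0.29, 0.30 and 0.18 in *Ireb2*+/+ and 0.11, 0.42 and 0.42 in *Ireb2*-/- livers. The *Aco1* effect on TE was 0.49 ± 0.12 (unadjusted p = 2.81e-04, edgeR, adjusted p = 0.728) and the *Ireb2* effect 0.05 ± 0.13. The difference of 0.44 ± 0.18 had an unadjusted p of 0.0177 by edgeR (adjusted p = 1). The exact permutation test gave p = 0.11, but it cannot decide here either, because the larger effect lies in a single line. The RNA effect in the *Aco1* line was 0.51 ± 0.24. Ferroportin RPF in *Aco1*-/- livers differed from wild type by 0.99 ± 0.30, against 0.27 ± 0.30 in the *Ireb2* line.

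*Alas2*, the erythroid enzyme of the first step of heme synthesis, had nearly equal TE effects in the 2 lines. Its TE was -0.35, 0.02 and -0.17 in *Aco1*+/+, 0.15, 0.37 and 0.08 in *Aco1*-/-, -0.01, 0.02 and -0.33 in *Ireb2*+/+ and 0.37, 0.13 and 0.29 in *Ireb2*-/- livers. In each line all 3 knockouts exceeded all 3 wild types, by 0.35 ± 0.14 in the *Aco1* line and 0.36 ± 0.13 in the *Ireb2* line (unadjusted p = 0.0136 and 0.0115, edgeR, adjusted p = 1 and 0.895). The difference was -0.00 ± 0.19. *Epas1*, the hypoxia-inducible factor HIF-2 alpha, overlapped between genotypes in TE in both lines, with a difference between lines of 0.11 ± 0.19.

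The 3′ IRE mRNAs were read from RNA. *Tfrc*, the transferrin receptor through which cells take up iron, had RNA levels of 15.2, 16.4 and 12.9 CPM in *Aco1*+/+, 8.90, 7.42 and 10.03 in *Aco1*-/-, 13.8, 8.76 and 30.7 in *Ireb2*+/+ and 12.7, 11.6 and 11.6 in *Ireb2*-/- livers. The 3 *Aco1*-/- livers were below their wild types, whereas in the *Ireb2* line the genotypes overlapped and wild type replicate 3 was the highest of all. Effects on RNA were -0.80 ± 0.30 in the *Aco1* line (unadjusted p = 0.0139, edgeR, adjusted p = 1) and -0.53 ± 0.30 in the *Ireb2* line, with a difference of -0.26 ± 0.42. Without *Ireb2*+/+ replicate 3 the *Ireb2* effect on *Tfrc* was 0.01 in RNA and 0.14 in RPF, so its negative value rests on that liver. Counts were low, between 14 and 61 per RNA library. *Slc11a2*, which encodes the iron importer DMT1, differed between lines by -0.05 ± 0.35 in RNA and -0.21 ± 0.23 in RPF.

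**Figure D2:**
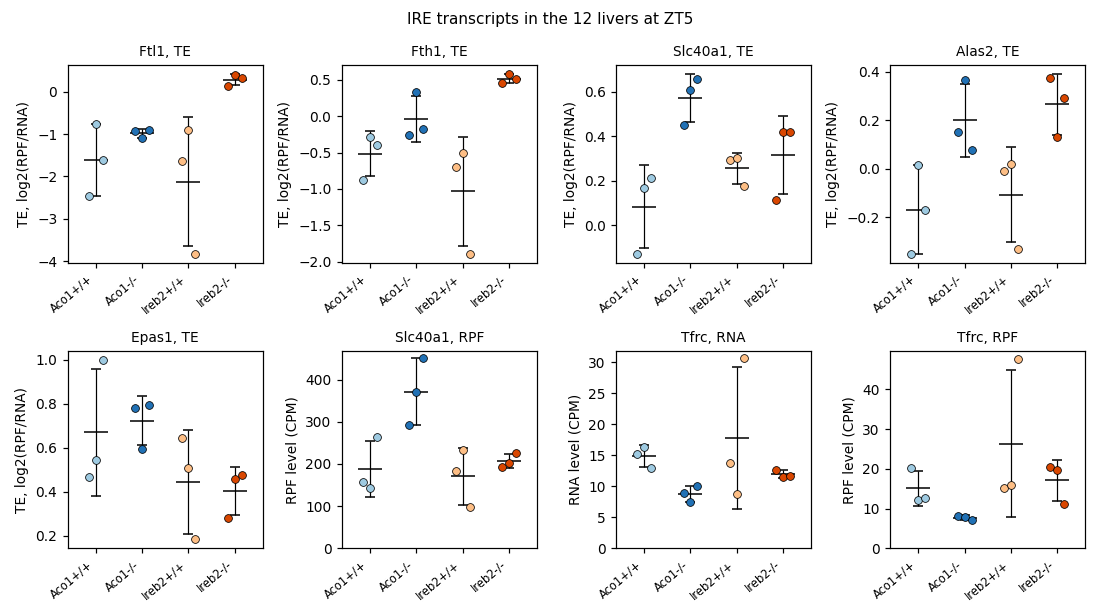
TE of 5 mRNAs with a 5′ IRE, as log2(RPF/RNA), the RPF level of *Slc40a1* and the RNA and RPF levels of *Tfrc* in CPM, in the 12 livers. Points are single livers, and bars show the mean ± SD of 3. *Ftl1* and *Fth1* TE were highest in the 3 *Ireb2*-/- livers, *Slc40a1* TE was highest in the 3 *Aco1*-/- livers, and *Alas2* TE was higher in the knockouts of both lines.

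Hepcidin mRNA, which carries no IRE, was high in the *Aco1* knockouts. *Hamp* (chr7:30942368-30944029, GRCm38) RNA was 578, 480.1 and 494 CPM in *Aco1*+/+, 1536, 1459 and 818 in *Aco1*-/-, 465, 574 and 689 in *Ireb2*+/+ and 646, 328 and 480.5 in *Ireb2*-/- livers. The *Aco1*-/- livers were the 3 highest of the 12. Its RPF was 1660.5, 1210.1 and 1169 CPM in *Aco1*+/+, 4091, 4044 and 1753 in *Aco1*-/-, 1119.5, 1234 and 1697 in *Ireb2*+/+ and 1279.8, 693 and 1020.1 in *Ireb2*-/- livers. The *Aco1* effect was 1.30 ± 0.28 in RNA and 1.29 ± 0.32 in RPF, and the *Ireb2* effect was -0.25 ± 0.28 and -0.44 ± 0.32. The difference between lines was 1.54 ± 0.39 in RNA and 1.73 ± 0.46 in RPF, which edgeR did not call (unadjusted p = 0.00265 and 0.00287, adjusted p = 0.999 and 0.844) and DESeq2 did. Without *Ireb2*+/+ replicate 3 it was 1.39 and 1.53.

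The 12 tested genes of hepcidin and BMP signalling included 4 with a higher RPF in *Aco1*-/- at an unadjusted p under 0.05 and 0 in *Ireb2*-/-, where the shares over all genes were 2.14% and 3.94%. The 4 were *Hamp*, *Atoh8*, *Bmp6* and *Id1*. In RNA 2 of the 12 were higher in *Aco1*-/- at that threshold and 0 in *Ireb2*-/-, beside 2.25% and 2.49% of all genes. Over the 12 genes the RPF effects ran from 0.02 to 1.89 in the *Aco1* line and from -0.44 to 1.71 in the *Ireb2* line. *Atoh8*, a transcription factor that acts on the hepcidin promoter, had RPF levels of 8.02, 11.8 and 14.2 CPM in *Aco1*+/+, 34.1, 25.5 and 17.2 in *Aco1*-/-, 9.04, 8.74 and 12.6 in *Ireb2*+/+ and 12.7, 8.73 and 9.94 in *Ireb2*-/- livers. All 3 *Aco1*-/- livers exceeded the other 9. The RPF effects were 1.28 ± 0.26 and 0.02 ± 0.26, a difference of 1.26 ± 0.37 (unadjusted p = 0.00312, edgeR, adjusted p = 0.844). *Bmp6*, the ligand that signals iron loading to hepatocytes, had RNA levels of 3.58, 5.12 and 4.52 CPM in *Aco1*+/+, 8.48, 11.02 and 8.60 in *Aco1*-/-, 4.24, 10.01 and 2.95 in *Ireb2*+/+ and 6.52, 8.14 and 7.20 in *Ireb2*-/- livers. Its *Aco1* effect in RNA was 1.07 ± 0.34 and its *Ireb2* effect 0.42 ± 0.35. *Id1*, a target of BMP signalling, had RPF effects of 0.84 ± 0.31 and -0.07 ± 0.32. The receptors and regulators *Tfr2*, *Hfe* and *Tmprss6* had RPF effects between -0.04 and 0.16 in the 2 lines. The list's median RPF effect was 0.47 in the *Aco1* line and 0.07 in the *Ireb2* line, beside 0.011 and 0.0197 over all genes. Without *Aco1*-/- replicate 1 the *Aco1* median was 0.26, with 3 members at that threshold, and without any 1 other liver it was 0.32 to 0.63. The *Ireb2* median was 0.14 without *Ireb2*-/- replicate 2, 0.12 without *Ireb2*+/+ replicate 1 and otherwise 0.05 to 0.08.

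The heme and oxygen genes named here did not pass an adjusted p of 0.05 by edgeR. *Hmox1*, the enzyme that breaks heme down and frees its iron, had RNA levels of 1.79, 4.85 and 12.9 CPM in *Aco1*+/+, 19.1, 14.8 and 12.6 in *Aco1*-/-, 14.4, 9.39 and 11.8 in *Ireb2*+/+ and 8.24, 11.1 and 9.41 in *Ireb2*-/- livers, with a difference between lines of 1.76 ± 0.50 (unadjusted p = 0.00197, edgeR, adjusted p = 0.999). The 3 *Aco1*+/+ livers spread widely, and 1 of them lay within the *Aco1*-/- range. RPF of *Hmox1* differed between lines by 0.66 ± 0.50, close to its error, and by 0.09 without *Aco1*-/- replicate 1 and 1.02 without *Aco1*-/- replicate 3. *Alas1*, the rate-limiting enzyme of heme synthesis outside red cells, had RNA levels of 431, 389.9 and 485 CPM in *Aco1*+/+, 123.7, 246 and 67.9 in *Aco1*-/-, 119.5, 239 and 312 in *Ireb2*+/+ and 384, 178 and 158 in *Ireb2*-/- livers. *Aco1*-/- livers were below *Aco1*+/+ livers with no overlap, and the effects were -1.56 ± 0.55 and 0.12 ± 0.55 with a difference of -1.68 ± 0.78, which did not pass. *Egln3*, a hypoxia-induced prolyl hydroxylase, had RPF effects of 0.47 ± 0.20 and -0.14 ± 0.20. Among the 12 tested hypoxia genes it was the 1 with a positive difference at an unadjusted p under 0.05 in RPF, where the share over all genes was 1.92%.

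Globin mRNAs, which in liver come from red cells and their precursors, were lower in the *Aco1* knockouts. All 4 globins tested had a lower RNA level in *Aco1*-/- at an unadjusted p under 0.05, where the share over all genes was 2.32%, and 1 of the 4 did so in *Ireb2*-/-, where it was 2.79%. The summed RNA of the 4 was 42.9, 72.7 and 36.8 CPM in *Aco1*+/+, 11.4, 7.42 and 21.2 in *Aco1*-/-, 37.6, 15.6 and 30.7 in *Ireb2*+/+ and 12.02, 23.1 and 14.1 in *Ireb2*-/- livers. *Aco1*-/- livers were below their own wild types but overlapped both groups of the *Ireb2* line. For *Hbb-bs*, an adult beta globin, the RNA effects were -2.21 ± 0.40 and -0.75 ± 0.44, a difference of -1.46 ± 0.60 (unadjusted p = 0.03, edgeR, adjusted p = 0.999). The median of the list was -1.84 in the *Aco1* line and -0.89 in the *Ireb2* line. Leaving out 1 liver gave -2.48 to -1.49 in the *Aco1* line, with 3 or 4 lower, and -1.16 to -0.45 in the *Ireb2* line. The 1 globin of the *Ireb2* line became 0 without *Ireb2*+/+ replicate 1 or 3 or *Ireb2*-/- replicate 1 or 3, and 2 without *Aco1*+/+ replicate 2 or replicate 2 of either *Ireb2* genotype. The *Hbb-bs* effect in that line was -0.29 without *Ireb2*+/+ replicate 1. Globin copies share reads, so their single values are uncertain, and in bulk liver fewer cells of a type and less RNA per cell cannot be told apart.

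Outside the iron genes the difference in RNA was led by *Mup7* and *Npr2*, and the larger effect of both was in the *Ireb2* line. *Mup7*, a major urinary protein made by male liver, had RNA levels of 756, 872 and 904 CPM in *Aco1*+/+, 631, 839 and 545 in *Aco1*-/-, 668, 650.3 and 673 in *Ireb2*+/+ and 216, 192 and 290.0 in *Ireb2*-/- livers. The 3 *Ireb2*-/- livers were the lowest of the 12. RNA effects were -1.51 ± 0.16 in the *Ireb2* line (edgeR, adjusted p = 5.17e-06) and -0.33 ± 0.15 in the *Aco1* line, and the difference was 1.18 ± 0.22 (edgeR, adjusted p = 0.0979). *Npr2*, a receptor for C-type natriuretic peptide, had RNA levels of 50.1, 41.2 and 62.0 CPM in *Aco1*+/+, 48.3, 66.7 and 66.5 in *Aco1*-/-, 73.7, 82.0 and 62.5 in *Ireb2*+/+ and 37.8, 33.4 and 39.3 in *Ireb2*-/- livers. *Ireb2*-/- livers lay below all other 9. The RNA effects were -0.98 ± 0.17 (edgeR, adjusted p = 0.0102) and 0.28 ± 0.17, with a difference of 1.26 ± 0.24 (edgeR, adjusted p = 0.0979). The *Npr2* call in the *Ireb2* line was lost without replicate 1 or 2 of either genotype (effects of -0.99 to -0.89). In turn, the difference was called for *Npr2* without *Aco1*+/+ replicate 3 (1.40) or *Ireb2*+/+ replicate 3 (1.36) and for *Mup7* without *Aco1*-/- replicate 3 (1.31) or *Ireb2*-/- replicate 3 (1.37).

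*Gba2*, a glucosylceramidase outside the lysosome, led the difference in RPF after *Aco1*. RPF of *Gba2* was 12.1, 10.8 and 10.97 CPM in *Aco1*+/+, 13.1, 18.7 and 17.5 in *Aco1*-/-, 25.3, 21.9 and 21.3 in *Ireb2*+/+ and 14.1, 12.1 and 10.4 in *Ireb2*-/- livers. The wild types of the *Ireb2* line were above all other livers, and in the *Aco1* line the knockouts exceeded the wild types. Effects were -0.91 ± 0.17 in the *Ireb2* line (edgeR, adjusted p = 0.0467) and 0.50 ± 0.18 in the *Aco1* line, a difference of 1.42 ± 0.25 (edgeR, adjusted p = 0.12). The *Gba2* call in the *Ireb2* line was lost when any liver but *Aco1*-/- replicates 1 and 3 and *Aco1*+/+ replicate 3 was left out, with effects of -1.01 to -0.82, and the difference was called without *Aco1*-/- replicate 1 (1.58). *Npr2* (chr4:43629015-43651437) and *Gba2* (chr4:43566928-43578886) lie 3.43 and 3.37 Mb from *Aco1* on chromosome 4 of GRCm38. In the line in which *Aco1* is disrupted neither passed. In the *Ireb2* line, whose targeted gene is on chromosome 9, *Npr2* passed in RNA and *Gba2* in RPF. Of the 50 tested genes within 5 Mb of *Aco1*, 0 in RNA, 3 in RPF and 2 in TE had an *Aco1* effect at an unadjusted p under 0.05, beside 4.56%, 4.03% and 3.67% of all genes. An *Ireb2* effect at that threshold was found for 4, 5 and 4 of the 50, beside 5.28%, 5.95% and 5.17%. With same-numbered livers of the *Aco1* line as a block, chosen after seeing the data, the RPF difference of *Gba2* was 1.40 (edgeR, adjusted p = 0.0493).

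Genes on the negative side were higher in *Ireb2*-/- than in its wild type, lower in *Aco1*-/-, or both. *Lsr*, a lipoprotein receptor of hepatocytes, had RNA levels of 169, 183 and 150.5 CPM in *Aco1*+/+, 137, 95.4 and 137 in *Aco1*-/-, 157, 144.6 and 146.2 in *Ireb2*+/+ and 198, 195 and 165 in *Ireb2*-/- livers. Knockouts were below wild type in the *Aco1* line (-0.45 ± 0.15) and above it in the *Ireb2* line (0.32 ± 0.15), with no overlap in either. The difference was -0.77 ± 0.21 in RNA and -0.88 ± 0.22 in RPF (unadjusted p = 0.00102 and 9.31e-04, edgeR, adjusted p = 0.983 and 0.844). *Fam198a* had a difference of -1.82 ± 0.39 in RNA (edgeR, adjusted p = 0.309) and -1.43 ± 0.36 in RPF. *H2-Aa*, a class II antigen-presenting chain, had RNA levels of 27.7, 32.9 and 36.8 CPM in *Aco1*+/+, 33.9, 24.4 and 23.5 in *Aco1*-/-, 33.3, 33.8 and 47.2 in *Ireb2*+/+ and 62.5, 65.5 and 59.5 in *Ireb2*-/- livers. In the *Ireb2* line the knockouts were above the wild types, an effect of 0.73 ± 0.18, against -0.27 ± 0.19 in the *Aco1* line. *Psmb8*, *Psmb9* and *Tap1*, parts of the machinery that makes peptides for class I presentation, were the 3 of 14 tested interferon-linked genes with a negative difference in RPF at an unadjusted p under 0.05, where the share over all genes was 2.7%. Their differences were -0.70 ± 0.20, -0.79 ± 0.29 and -0.45 ± 0.20. The other leading negative genes in RNA were *Fam129b* (-1.68), *Pycard* (-3.11, on 1 to 10 counts per library), *Rgs12* (-1.77) and *Slc17a4* (-1.11), and in RPF they were *Acbd6* (-1.15), *Mrc2* (-1.70), *Adam11* (-1.98), *H2-Q6* (-1.26) and *Limd2* (-1.53). *H2-Q6* has close copies that may share its reads, so its value is uncertain.

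On the positive side, *Acnat1*, a peroxisomal acyltransferase, had an RNA difference of 1.13 ± 0.29 and *Mmp19*, a matrix metalloproteinase, one of 1.01 ± 0.26. For *Mmp19* the RPF difference was 0.53 ± 0.18, and for *Acnat1* it was 0.31 ± 0.28, close to its error. The transcription factor *Foxp4* (1.27) and *Ccdc86* (2.05, on 3 to 29 counts per library) completed the leading positive genes in RNA with *Mup7*, *Npr2*, *Hmox1* and *Hamp*. In RPF they were *AI661453* (0.90), *Mup12* (0.97), *Sec14l4* (0.68), *Fign* (1.39) and *Mup7* (1.09) beside *Gba2*, *Ireb2* and *Npr2*. Of the 454 genes with an unadjusted p under 0.05 for the difference in RNA, 351 (77.3%) had the same sign in RPF. In 77 of them (17%) RPF passed the same threshold in the same direction, and in 1 in the opposite direction.

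**Figure D3:**
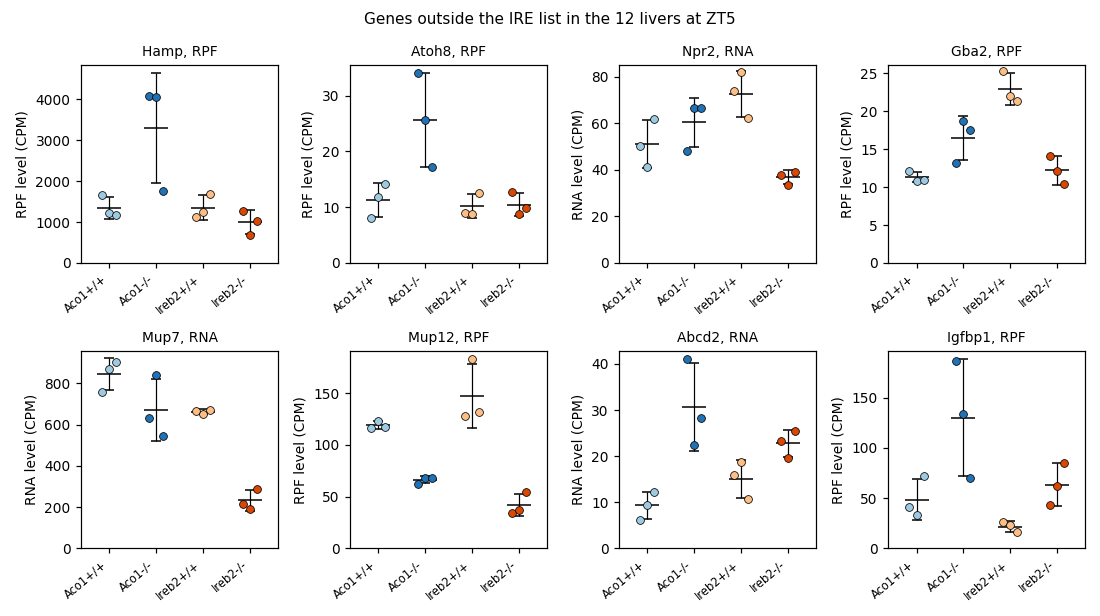
RNA or RPF levels in CPM, on axes from 0, of 8 genes in the 12 livers, with single livers as points and mean ± SD as bars. *Hamp* and *Atoh8* were high in the 3 *Aco1*-/- livers, *Npr2*, *Gba2* and *Mup7* were lower in *Ireb2*-/- than in *Ireb2*+/+ livers, and the means of *Mup12* (lower), *Abcd2* and *Igfbp1* (higher) differed from wild type in one direction in both lines.

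Genes with effects in both lines were the other side of the comparison. The *Aco1* effect passed an adjusted p of 0.05 for 4 genes in RNA (0.0386%), 2 in RPF (0.0193%) and 1 in TE (0.00965%), and the *Ireb2* effect for 6 in RNA (0.0579%), 8 in RPF (0.0772%) and 1 in TE (0.00965%), by edgeR. At an unadjusted p under 0.05 the *Aco1* effect was positive for 2.25% and negative for 2.32% of genes in RNA, and the *Ireb2* effect for 2.49% and 2.79%. With same-numbered livers of the *Aco1* line as a block, chosen after seeing the data, the *Aco1* effect passed for 11 genes in RNA and 4 in RPF. The *Ireb2* effect then passed for 21 in RPF and the difference for 3 in RPF. That block has no term for the *Ireb2* livers, whose calls change through the estimate of the spread that all groups share. *Mup12* was called in RNA in both lines. Its RNA was 26.8, 27.2 and 38.1 CPM in *Aco1*+/+, 8.90, 11.4 and 16.9 in *Aco1*-/-, 28.8, 41.3 and 34.2 in *Ireb2*+/+ and 9.61, 11.99 and 16.1 in *Ireb2*-/- livers, an effect of -1.25 ± 0.24 in the *Aco1* line and -1.42 ± 0.24 in the *Ireb2* line (edgeR, adjusted p = 0.0349 and 0.00533). Neither line's knockouts overlapped its wild types. The call was lost in the *Aco1* line when any 1 of 7 livers was left out (*Aco1*+/+ replicates 1, 2 and 3, *Aco1*-/- replicates 1 and 2, *Ireb2*-/- replicates 1 and 2; effects of -1.34 to -1.10) and in the *Ireb2* line when any 1 of 3 was (*Ireb2*-/- replicates 1 and 2, *Ireb2*+/+ replicate 2; -1.39 to -1.26). RPF of *Mup12* differed by -0.85 ± 0.17 and -1.82 ± 0.17. *Mup1* RNA differed by -1.11 ± 0.22 and -1.53 ± 0.23, and *Mup16* RNA by -1.35 ± 0.21 and -0.84 ± 0.23. Under other settings they came as near to no effect as -0.68 and -0.94 for *Mup1* and -0.63 and -0.09 for *Mup16*. Single *Mup* copies are nearly identical and share reads, so values of one copy are uncertain. Over the 16 *Mup* genes tested, a family looked at after these values were seen, 15 were lower in RPF in *Aco1*-/- and 16 in *Ireb2*-/-, with medians of -0.49 and -1.04, and 10 and 12 of them had a lower level at an unadjusted p under 0.05, beside 1.89% and 2.02% of all genes. In RNA, 11 of the 16 were lower and 5 higher in *Aco1*-/-, with 9 lower and 2 higher at that threshold (2.32% and 2.25% of all genes), and 16 were lower in *Ireb2*-/-, with 7 at that threshold (2.79%). With the block within the *Aco1* line, chosen after seeing the data, *Mup1* was also called for the *Aco1* effect in RNA (-1.13; edgeR, adjusted p = 0.0201). It was called for both effects in RPF (-1.33 and -1.35; edgeR, adjusted p = 0.00231 and 7.40e-04), and the *Ireb2* effect on *Mup7* in RPF was not (-1.52; edgeR, adjusted p = 0.0683).

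Further genes had negative effects in both lines. *Hsd3b5*, a steroid reductase of male liver, had RNA levels of 195, 233 and 196 CPM in *Aco1*+/+, 121.6, 108.7 and 174 in *Aco1*-/-, 179, 158 and 130.9 in *Ireb2*+/+ and 60.4, 62.1 and 86.1 in *Ireb2*-/- livers, with effects of -0.63 ± 0.17 and -1.16 ± 0.18 (edgeR, adjusted p = 0.542 and 0.0016). The second call was lost without *Ireb2*-/- replicate 1 or 2 (effects of -1.09 and -1.07). *Ugt2b38*, a glucuronosyltransferase, had RNA effects of -1.24 ± 0.40 and -1.52 ± 0.50, which were -0.40 and -0.10 with all columns of the count files summed. The second was -3.01 and called without *Ireb2*-/- replicate 3, and -1.94 to -1.17 without any 1 other liver. *Cyp7b1*, a hydroxylase of oxysterols, had RPF effects of -0.42 ± 0.19 and -1.21 ± 0.19 (edgeR, adjusted p = 1 and 0.016), and the difference between the 2 was 0.79 ± 0.27. Its call was lost without replicate 1 or 2 of either genotype of the *Ireb2* line (effects of -1.22 to -1.09). *Lifr*, the receptor of leukaemia inhibitory factor, had RPF effects of -0.60 ± 0.17 and -0.78 ± 0.17. The second was called with the replicate block over all groups (-0.78; edgeR, adjusted p = 0.0438) and not without a block.

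Among genes higher in both lines, *Abcd2*, a peroxisomal fatty acid transporter, had RNA levels of 6.26, 9.43 and 12.3 CPM in *Aco1*+/+, 41.1, 22.5 and 28.4 in *Aco1*-/-, 15.8, 18.8 and 10.6 in *Ireb2*+/+ and 23.3, 19.7 and 25.5 in *Ireb2*-/- livers. Knockouts exceeded wild types in both lines, by 1.71 ± 0.26 in the *Aco1* line (edgeR, adjusted p = 0.0046) and 0.60 ± 0.25 in the *Ireb2* line (edgeR, adjusted p = 0.908). The *Aco1* call was lost without *Aco1*+/+ replicate 1 or 2 (effects of 1.51 and 1.75), and the difference was 1.11 ± 0.37 (unadjusted p = 0.00557, edgeR, adjusted p = 0.999). *Igfbp1*, a fasting-induced binding protein of insulin-like growth factors, had RPF levels of 40.8, 33.2 and 71.8 CPM in *Aco1*+/+, 186, 133.6 and 70.3 in *Aco1*-/-, 26.1, 23.2 and 15.98 in *Ireb2*+/+ and 43.5, 61.8 and 85.3 in *Ireb2*-/- livers. Its RPF effects were 1.47 ± 0.40 and 1.55 ± 0.41, although 1 *Aco1*-/- liver lay within the wild-type range. *Rtn4*, a protein that shapes the endoplasmic reticulum, had RPF effects of 0.39 ± 0.13 and 0.67 ± 0.13, and *Acot2*, a mitochondrial acyl-CoA thioesterase, 1.05 ± 0.30 and 0.77 ± 0.24. The second *Rtn4* effect was called with the replicate block over all groups (edgeR, adjusted p = 0.0323). It was also called with that within the *Aco1* line, chosen after seeing the data (edgeR, adjusted p = 0.0118). In RNA *Stbd1* (effects of 0.40 and 0.41), *Tm6sf2* (0.63 and 0.59) and *Vnn3* (0.51 and 0.46) were also positive in both lines, and *Rdh16f2* (0.53 and 0.42) was so in RPF. Leaving out 1 liver gave 0.32 to 0.81 for the *Aco1* effect on *Vnn3* and 0.42 to 0.99 for the *Ireb2* effect on *Tm6sf2*. *Gm5244*, a predicted gene named after its values were seen, stood out in one group. Its RNA was 0, 0 and 0 CPM in *Aco1*+/+, 0.424, 0 and 0 in *Aco1*-/-, 0.283, 0 and 0 in *Ireb2*+/+ and 8.24, 8.57 and 7.20 in *Ireb2*-/- livers, with between 0 and 26 counts per library.

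Gene by gene, the 2 effects had correlations close to 0 over all genes. In RNA the quartiles were -0.147 and 0.161 for the *Aco1* effect and -0.179 and 0.179 for the *Ireb2* effect. The median SE was 0.239 and 0.248, and errors of this size lower a correlation. Across the 10367 genes the *Aco1* effect and the *Ireb2* effect had a Pearson correlation of 0.0321 in RNA, 0.0377 in RPF and -0.00505 in TE. These are descriptions across genes, which are not independent replicates, and the effects share no library. For scale, RNA and RPF of the same line, which share mice but no library, gave 0.327 for the *Aco1* effect and 0.387 for the *Ireb2* effect. Among the 916 genes with at least 100 CPM in RNA and RPF the correlation between lines was 0.311 in RNA, 0.331 in RPF and 0.248 in TE by Pearson, and 0.15, 0.176 and 0.14 by Spearman, and between RNA and RPF of one line it was 0.828 and 0.822 by Pearson and 0.648 and 0.595 by Spearman. At an unadjusted p under 0.05 the lines shared 38 genes in RNA, which were 8.03% of the 473 of the *Aco1* effect and 6.95% of the 547 of the *Ireb2* effect (4.56% and 5.28% of genes tested). Of the 38, 29 moved in the same direction, 10 up and 19 down. In RPF the lines shared 60 genes, 14.4% of 418 and 9.72% of 617 (4.03% and 5.95% of genes tested), of which 42 moved in the same direction. In TE they shared 20, 5.26% of 380 and 3.73% of 536 (3.67% and 5.17% of genes tested), of which 12 did so. Over all genes tested, 51.1% had the same sign in both lines in RNA, 49.6% in RPF and 50.5% in TE.

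**Figure D4:**
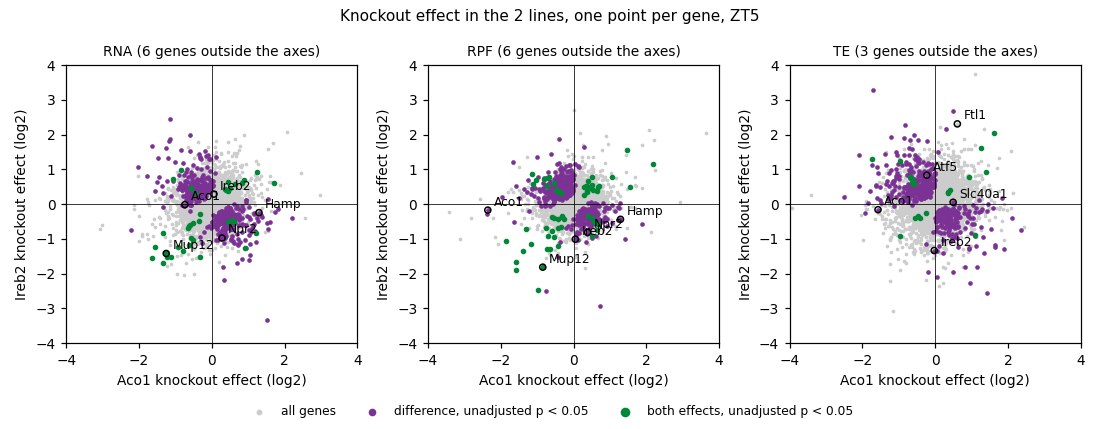
The *Aco1* knockout effect (x axis) against the *Ireb2* knockout effect (y axis) in RNA, RPF and TE, both log2, for the 10367 genes. Purple points have an unadjusted p under 0.05 for the difference between the effects, and green points for both effects. *Aco1* and *Ireb2* lie near one axis each in RPF and TE, and *Mup12* is negative on both axes in RNA and RPF.

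Mitochondrially encoded mRNAs, which are translated by ribosomes of the mitochondrion, had a lower TE in the *Ireb2* knockouts. Of the 12 tested, 9 had a lower TE in *Ireb2*-/- at an unadjusted p under 0.05 and 1 in *Aco1*-/-, where the shares over all genes were 2.21% and 1.98%. Their median TE was -3.32, -3.49 and -3.38 in *Aco1*+/+, -3.60, -3.48 and -3.75 in *Aco1*-/-, -2.86, -3.26 and -1.72 in *Ireb2*+/+ and -4.22, -3.53 and -4.01 in *Ireb2*-/- livers. The *Ireb2*-/- livers were below their wild types with no overlap, and the value of wild type replicate 3 was far above the others. The median effect of the list was -0.24 in the *Aco1* line and -1.28 in the *Ireb2* line. Without *Ireb2*+/+ replicate 3 the *Ireb2* median was -0.84 with 10 of 12 at an unadjusted p under 0.05, and the median difference between lines fell from 1.04 to 0.59. *mt-Nd4l*, a subunit of complex I, had TE values of -1.76, -2.19 and -2.21 in *Aco1*+/+, -1.86, -2.07 and -1.87 in *Aco1*-/-, -1.26, -1.86 and -0.41 in *Ireb2*+/+ and -3.15, -2.14 and -2.92 in *Ireb2*-/- livers. Its difference was 1.29 ± 0.45 (unadjusted p = 0.00711, edgeR, adjusted p = 1), and that of *mt-Atp8*, a subunit of ATP synthase, was 0.89 ± 0.37. Leaving out 1 liver gave 1.11 to 1.71 for *mt-Nd4l* and 0.58 to 1.13 for *mt-Atp8*.

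Ribosomal protein mRNAs, which carry a 5′ terminal oligopyrimidine tract, had median RPF effects of opposite sign in the 2 lines. Of the 74 tested, 18 had a higher RPF in *Ireb2*-/- at an unadjusted p under 0.05 and 0 in *Aco1*-/-, where the shares over all genes were 3.94% and 2.14%. A total of 10 had a negative difference between lines in RPF (share over all genes 2.7%) and 8 in TE (2.71%). The median RPF effect was -0.22 in the *Aco1* line and 0.32 in the *Ireb2* line. Without 1 liver the *Aco1* median was as close to 0 as -0.03 (*Aco1*+/+ replicate 2 omitted) or -0.12 (*Aco1*-/- replicate 1 omitted), and as low as -0.40 (*Aco1*-/- replicate 2 omitted) or -0.35 (*Aco1*+/+ replicate 3 omitted). The *Ireb2* median fell to 0.10 with *Ireb2*+/+ replicate 1 omitted and to 0.14 with *Ireb2*-/- replicate 3 omitted. Their median TE was -0.83, -0.32 and -0.87 in *Aco1*+/+, -1.01, -0.28 and -0.85 in *Aco1*-/-, -1.94, -1.33 and -0.71 in *Ireb2*+/+ and -1.36, -1.35 and -0.69 in *Ireb2*-/- livers. Leaving out 1 liver moved these values widely. The 18 with a higher RPF became 4 without *Ireb2*-/- replicate 3 and 5 without *Ireb2*+/+ replicate 1, and 13 to 21 without any 1 of the others. The 10 with a negative RPF difference became between 4 (without *Aco1*+/+ replicate 2) and 24 (without *Aco1*+/+ replicate 3), and the 8 in TE between 4 (without *Ireb2*-/- replicate 3 or *Ireb2*+/+ replicate 1) and 14 (without *Aco1*-/- replicate 2 or *Ireb2*+/+ replicate 2). The median TE effect was -0.17 in the *Aco1* line and 0.21 in the *Ireb2* line. The latter turned to -0.07 without *Ireb2*+/+ replicate 1 and -0.04 without *Ireb2*-/- replicate 3, and rose to 0.46 without *Ireb2*+/+ replicate 3. The median TE difference was -0.37, and omitting *Ireb2*+/+ replicate 3 gave -0.65 where omitting replicate 1 of that group gave -0.05. Livers of one genotype spread more widely than the genotypes differed, and knockouts and wild types overlapped in both lines.

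Genes of lipid synthesis had a positive median RPF effect in the *Ireb2* line, also without any 1 liver. Of the 13 tested genes of fatty acid synthesis, 4 had a higher RPF in *Ireb2*-/- at an unadjusted p under 0.05 and 0 in *Aco1*-/-, and of the 21 of sterol synthesis 4 and 1 did so, beside shares of 3.94% and 2.14% over all genes. The count of 4 for fatty acid synthesis became 0 without *Ireb2*-/- replicate 2 or *Ireb2*+/+ replicate 2, 2 without *Aco1*-/- replicate 3 or *Ireb2*+/+ replicate 1 or 3, and 6 without *Ireb2*-/- replicate 3 or *Aco1*-/- replicate 2. That for sterol synthesis became 2 without *Ireb2*-/- replicate 2 or *Ireb2*+/+ replicate 2, 8 without *Ireb2*+/+ replicate 1 and 11 without *Ireb2*-/- replicate 3. The medians were 0.68 and 0.17 for fatty acid synthesis and 0.30 and 0.11 for sterol synthesis, in the *Ireb2* and *Aco1* lines. The *Ireb2* medians were lowest when *Ireb2*-/- replicate 2 was omitted (0.46 and 0.09) and highest when replicate 3 was (0.80 and 0.47). The *Aco1* median of fatty acid synthesis turned to -0.04 without *Aco1*-/- replicate 1, -0.09 without *Aco1*-/- replicate 3 and -0.01 without *Aco1*+/+ replicate 1, and was 0.42 without *Aco1*-/- replicate 2. That of sterol synthesis was -0.02 without *Aco1*-/- replicate 1 and 0.25 without *Aco1*-/- replicate 2. *Fdps*, which makes farnesyl diphosphate, had RPF levels of 10.98, 9.70 and 11.9 CPM in *Aco1*+/+, 15.8, 13.4 and 7.35 in *Aco1*-/-, 10.9, 9.99 and 12.5 in *Ireb2*+/+ and 22.1, 25.7 and 14.3 in *Ireb2*-/- livers and effects of 0.92 ± 0.23 in the *Ireb2* line and 0.23 ± 0.26 in the *Aco1* line. *Me1*, which supplies NADPH, had effects of 0.72 ± 0.32 and 0.04 ± 0.33. The difference between lines had an unadjusted p under 0.05 for 0 of the 34 genes of these lists in RPF, where the share over all genes was 4.62%. Without *Aco1*-/- replicate 1 it did so for 4 of the 13 and 2 of the 21, and without *Aco1*-/- replicate 3 for 0 and 2. Omitting *Aco1*+/+ replicate 1 or *Ireb2*+/+ replicate 1 gave 1 and 0, and omitting *Ireb2*-/- replicate 3 gave 0 and 1.

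Among the 16 circadian clock genes tested, 0 had an unadjusted p under 0.05 for either effect or for the difference in RNA or RPF, where the shares over all genes ran from 4.03% to 5.95%. Without *Aco1*-/- replicate 3 there were 1 higher and 2 lower for the *Aco1* effect in RNA, 2 and 3 in RPF, and 1 positive and 2 negative for the difference in RPF, and without any 1 other liver at most 1 in each direction in RNA or RPF. In TE, 2 of the 16 had a positive and 1 a negative *Ireb2* effect at that threshold, beside 2.96% and 2.21% of all genes, and 0 had an *Aco1* effect or a difference. In the lists of iron transport, Fe-S cluster assembly and heme the median difference between lines was between -0.18 and 0.01 in RNA, RPF and TE. *Gclc*, which catalyses the first step of glutathione synthesis, was the 1 of 12 tested NRF2 targets with a positive difference in RPF at an unadjusted p under 0.05 (0.67 ± 0.21, beside 1.92% of all genes). The 3 tested markers of bile duct cells did not move together. *Spp1* had RNA effects of 1.34 ± 0.28 in *Ireb2*-/- and 0.11 ± 0.25 in *Aco1*-/-, whereas *Sox9*, on 2 to 19 counts per library, had -1.01 ± 0.45 and 0.52 ± 0.54, and *Krt19* 0.80 ± 0.80 and -1.79 ± 0.88. The summed RNA of the 3 tested bile duct markers was 15.5 to 27.7 CPM in *Ireb2*+/+ and 26.6 to 53.2 CPM in *Ireb2*-/- livers, and that of the 10 Kupffer cell markers was 471 to 551 CPM and 509 to 671 CPM. Their part in the differences given here was not tested. Markers of lymphocytes and neutrophils were too low to be tested.

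**Figure D5:**
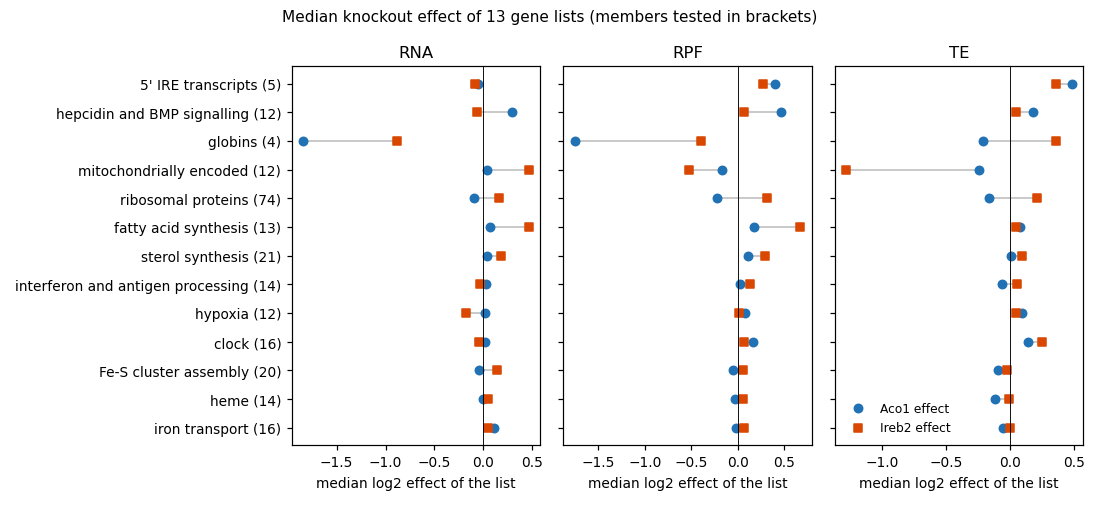
Median log2 knockout effect of 13 gene lists in RNA, RPF and TE, with the number of members tested in brackets. Blue circles are the *Aco1* effect and orange squares the *Ireb2* effect, joined for each list. The lines stood furthest apart for globins in RNA and RPF and for mitochondrially encoded mRNAs in TE, and lay close together for the iron transport list.

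In TE the difference was called for the targeted genes alone, and the next gene was *Atf5*, a transcription factor whose mRNA is regulated through upstream reading frames. Its TE was -1.66, -1.56 and -1.73 in *Aco1*+/+, -1.78, -1.94 and -1.94 in *Aco1*-/-, -2.17, -2.15 and -3.01 in *Ireb2*+/+ and -1.45, -1.77 and -1.58 in *Ireb2*-/- livers. *Ireb2*-/- livers were above their wild types and *Aco1*-/- livers below theirs, each with no overlap. The effects were 0.83 ± 0.18 and -0.23 ± 0.19, a difference of -1.07 ± 0.26 (unadjusted p = 2.16e-04, edgeR, adjusted p = 0.748), and -0.79 without *Ireb2*+/+ replicate 3. *Arhgef1*, a guanine nucleotide exchange factor, had a difference of -1.06 ± 0.29. For *Lifr*, listed above for RPF, the TE difference was 0.53 ± 0.17. The other leading genes were *Rpusd2* (1.99), *Tbc1d22a* (1.37), *Mup16* (0.86), *Rps6ka5* (2.95) and *Pycard* (3.10) on the positive side and *Prelp* (-1.18), *Tmem14a* (-2.63), *Ncstn* (-2.21), *Luc7l2* (-1.26) and *Ccdc86* (-1.84) on the negative side. None of these passed an adjusted p of 0.05 by edgeR. Under other settings the difference fell to 0.69 for *Tbc1d22a*, 1.41 for *Rps6ka5* and 1.49 for *Pycard*. It was as small as -0.84 for *Tmem14a* and -0.70 for *Luc7l2*, and directions that turned are given below. *mt-Nd6*, a further complex I subunit, had TE effects of -0.49 ± 0.15 in the *Aco1* line and -0.35 ± 0.15 in the *Ireb2* line (unadjusted p = 0.00447 and 0.0307, edgeR, adjusted p = 1 and 0.897). Leaving out 1 liver gave -0.62 to -0.35 and -0.51 to -0.15.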

How the data were processed

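Liver RPF and total RNA libraries of individual mice were analysed, 12 livers at ZT5 (24 libraries, 16 of them sequenced in 2 runs). Per the labels and the study's methods, the authors removed adapters with cutadapt 3.5, filtered reads by quality and length, removed rRNA and tRNA reads with Bowtie2 and mapped the rest with STAR 2.70f to GRCm38, and the deposited values are raw counts per gene without a header. The counting tool, strand setting and column names are not given in the sources used here. Column 3 was taken as coding sequence, an assumption. It held 91.9% to 95.3% of RPF counts and 48.3% to 66.7% of RNA counts. Runs of one library were summed. Total counts were 2090890 to 7059389 per RNA library and 2633276 to 14292376 per RPF library, which limits precision for low genes.

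Genes passing edgeR's filter (minimum count 10, minimum total 15) were kept, 10367 of 25266. Counts were scaled by the upper quartile and fitted with edgeR 4.0.16 (R 4.3.3) by robust quasi-likelihood over the 12 livers of RNA or RPF, with 1 coefficient per group. TE was fitted over all 24 libraries with each mouse as a block and an interaction of library kind and group. Standard errors are the log2 effect divided by the square root of F. TE per liver used a prior count of 0.5. P-values were adjusted by Benjamini-Hochberg over all genes tested. Each fit was tested on simulated counts with 200 changed genes: between 4.44% and 8.57% of its calls were unchanged genes. Alternatives used TMM, DESeq2 1.42.0, limma 3.58.1, other filters, the first run, all columns, all 24 livers, a replicate block over all groups, unpaired libraries and leaving out each liver. Deviations from the group mean of same-numbered *Aco1*+/+ and *Aco1*-/- livers correlated at 0.148 to 0.344 in RNA and 0.141 to 0.572 in RPF. The labels name no shared batch. In RPF *Aco1*+/+ replicate 2 with *Aco1*-/- replicate 1 gave 0.401, and *Aco1*+/+ replicate 1 with *Aco1*-/- replicate 2 gave 0.177. Replicate 3 of one genotype with replicate 1 or 2 of the other gave -0.481 to -0.205. The values therefore do not show that same-numbered livers are pairs. Same-numbered livers of the *Ireb2* line correlated at -0.266 to -0.0585 in RNA and -0.266 to -0.0394 in RPF. A fit with the replicate number as a block within the *Aco1* line alone was added after seeing these values. Gene coordinates are from RefSeq on GRCm38.

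Named genes were the targeted and IRE genes, the 8 positive and 8 negative genes with the smallest p for the difference in each of RNA, RPF and TE, the 5 up and 5 down in both lines, up to 4 members per list by p, and genes within 5 Mb of *Aco1* or *Ireb2*, leaving out predicted genes; *Gm5244* was named outside this rule. A few items are not reported here, and one of them was left out of its list. The members and lists were chosen with earlier results of these data known. The sequences of the IRE hairpins were not used here.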

Additional observations from a re-analysis of the deposited data

Results flagged for a closer look

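The knockout effects of the 2 lines differed, by a test of the difference itself, for 3 values, all of genes that the knockouts target. The *Aco1* RPF difference between the knockout effects was -2.18 on the log2 scale, the *Aco1* TE difference -1.41 and the *Ireb2* TE difference 1.31. Neither TE difference was called by limma on TE per mouse or with libraries not paired by mouse. The *Ireb2* TE call was also lost when any 1 of 6 livers was left out. In RPF, *Aco1* was lower in 3 of 3 *Aco1*-/- livers than in every other liver. In TE, *Ireb2* was lower in 3 of 3 *Ireb2*-/- livers than in every other liver.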

How the results depend on the processing

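Every liver group held 3 mice, and low counts limit the values of low genes. The 190 gene values of the text were recomputed without each of the 12 livers and under up to 9 other settings in RNA and RPF and 11 in TE, and 169 kept their direction wherever they were recomputed. The RPF difference of *Aco1* was called under every setting run. Its TE difference was not called by limma on TE per mouse (adjusted p = 0.573) or with libraries not paired by mouse (adjusted p = 0.105, edgeR). For the TE difference of *Ireb2* the adjusted p was 0.9994 by limma and 0.9999 by edgeR with unpaired libraries. Under both settings 0 genes were called for the TE difference and 0 for the TE effect of *Ireb2* loss. The causes were not tested.

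Counts of called genes (difference, *Aco1* effect, *Ireb2* effect) moved with several settings. DESeq2 called 3, 11 and 13 genes in RNA, 4, 12 and 30 in RPF, and 4 for the *Ireb2* effect in TE. With at least 10 counts in every library the *Ireb2* effect in RPF had 3. On the first run alone the *Aco1* effect had 1 in RNA and 1 in RPF. With all columns summed the RNA effects had 0 (*Aco1*) and 3 (*Ireb2*) and the *Ireb2* effect in TE had 2. With all 24 livers in the fit the RNA effects had 1 and 1, and RPF had 2 for the difference, 1 for *Aco1* and 4 for *Ireb2*. Leaving out 1 liver gave 0 to 1, 0 to 13 and 2 to 13 in RNA, 1 to 3, 1 to 9 and 2 to 14 in RPF, and in TE 1 to 2 for the difference and 1 to 2 for the *Ireb2* effect.

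The reported RNA and RPF values use no replicate block. Over all groups, deviations of same-numbered livers correlated above 0.1 in 6 of 18 pairs in RNA and 10 of 18 in RPF, and in all 3 pairs of the *Aco1* line in both. Of the 36 pairs with different numbers, 4 in RNA and 5 in RPF were above 0.1. With the replicate block over all groups the *Aco1* effect in RNA had 7 called genes, the *Ireb2* effect in RPF 15, and the correlation of effects in RNA was 0.0591. With the replicate block within the *Aco1* line, chosen after seeing the data, the *Aco1* effect had 11 in RNA and 4 in RPF, the *Ireb2* effect 21 in RPF and the difference 3 in RPF. In TE neither block changed a count of calls.

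Among the 916 genes with at least 100 CPM the correlation between the 2 effects was 0.311 in RNA, 0.331 in RPF and 0.248 in TE. Over all genes kept it moved but remained small. In RNA it was 0.00164 with no filter, 0.102 with at least 10 counts, 0.0702 with all columns and 0.0192 with all 24 livers. In RPF it was -0.0219 with no filter, 0.0940 with at least 10 counts and -0.0774 with all 24 livers. In TE it was 0.0297, 0.0177 and 0.0319 with at least 10 counts, the first run alone and all columns. Leaving out 1 liver gave 0.000253 to 0.0505 in RNA, -0.0514 to 0.103 in RPF and -0.0462 to 0.0227 in TE.

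Some directions turned. The TE difference of *Alas2* was 0.039 with TMM, 0.015 with DESeq2, 0.0099 with no filter, 0.00753 with the replicate block over all groups and 0.0139 with that within the *Aco1* line. The RPF difference of *Fbxl5* was -0.000473 with no filter, -0.029 with at least 10 counts, -0.32 on the first run and -0.00801 with all 24 livers. On the first run the RNA difference of *Slc11a2* was 0.10 and the TE difference of *Tfrc* 0.64. With all columns summed, the RNA difference was -0.57 for *Ccdc86* and 0.00600 for *Fth1*, the RPF effect of *Ireb2* loss on *Hbb-bt* was 0.019, and the TE difference was 1.04 for *Ccdc86*, 0.11 for *Ncstn*, 0.039 for *Prelp*, 0.047 for *Slc11a2* and 0.34 for *Tfrc*.

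Leaving out 1 liver turned some directions too. In RNA the *Ireb2* effect on *Tfrc* ran from -0.80 to 0.0056, and the differences from -0.11 to 0.25 (*Epas1*), -0.23 to 0.12 (*Fbxl5*), -0.27 to 0.077 (*Fth1*), -1.17 to 0.20 (*Hba-a1*), -0.48 to 0.014 (*Ireb2*), -0.30 to 0.21 (*Slc11a2*) and -0.80 to 0.0066 (*Tfrc*). In RPF the *Ireb2* effect ran from -0.41 to 0.24 (*Hbb-bs*), -0.76 to 0.35 (*Hbb-bt*) and -0.88 to 0.14 (*Tfrc*), and the difference from -0.088 to 0.37 (*Epas1*) and -0.044 to 0.072 (*Fbxl5*). In TE the difference ran from -0.10 to 0.10 (*Alas2*), -0.13 to 0.30 (*Fbxl5*), -0.39 to 0.011 (*Slc11a2*) and -0.41 to 0.16 (*Tfrc*).

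Leaving out *Ireb2*+/+ replicate 3 for the gene lists was chosen after seeing the data.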

Other observations

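Gluconeogenesis and fatty acid oxidation, neither described so far, held a few genes with unequal effects. *G6pc*, the enzyme that releases glucose from the liver, had RNA levels of 364, 483 and 302 CPM in *Aco1*+/+, 503, 405 and 314 in *Aco1*-/-, 144.9, 89.5 and 192 in *Ireb2*+/+ and 239.6, 305 and 251 in *Ireb2*-/- livers. All 3 *Ireb2*-/- livers were above their wild types, while the groups of the *Aco1* line overlapped. The RNA effects were 0.90 ± 0.26 in the *Ireb2* line and 0.08 ± 0.25 in the *Aco1* line, a difference of -0.82 ± 0.36 (unadjusted p = 0.044, edgeR, adjusted p = 0.999). *Ppargc1a*, a coactivator induced by fasting, had RPF effects of 0.67 ± 0.23 and -0.30 ± 0.28. *Vnn1*, a target of PPAR alpha, had RNA effects of 0.11 ± 0.22 and -0.65 ± 0.22, with *Aco1*-/- livers below their wild types. None of the 3 genes passed an adjusted p of 0.05 by edgeR.

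At an unadjusted p under 0.05 the difference in RPF was positive for 0 and negative for 1 of the 12 tested genes of gluconeogenesis, 0 and 0 of 14 of fatty acid oxidation, 1 and 0 of 10 of bile acids, 0 and 0 of 15 acute-phase genes, 0 and 0 of 18 of the unfolded protein response, 0 and 0 of 7 of the integrated stress response and 0 and 1 of 75 mitochondrial ribosomal protein genes. Over all genes the shares were 1.92% and 2.7%. The list medians of that difference ran from -0.13 to 0.16. Leaving out 1 liver gave at most 2 members in either direction for the first 6 lists. For the mitochondrial ribosomal proteins it gave 8 negative without *Aco1*+/+ replicate 3, 6 without *Aco1*-/- replicate 1 and 0 or 1 otherwise, with a median of -0.26 to -0.01.

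Among the 16 tested genes of iron transport, 14 of heme and 20 of Fe-S clusters, 0 had an unadjusted p under 0.05 for the difference in RPF (4.62% of all genes). In RNA 2 were positive and 1 negative for iron transport, 2 positive for heme and 0 for Fe-S clusters (4.38% of all genes), and in TE 2, 2 and 1 were negative (4.34%). Within 5 Mb of *Ireb2* 73 genes were tested, with 4 positive and 5 negative in RPF (1.92% and 2.7% of all genes), 2 and 1 in RNA (2.28% and 2.1%) and 1 and 2 in TE (1.63% and 2.71%). Markers of endothelial and stellate cells, 8 of each, had median RNA differences of -0.12 and -0.32. Leaving out 1 liver gave -0.24 to -0.01 and -0.46 to -0.20.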
